A study of Mus musculus with 6 samples.

Results

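The tumor necrosis factor (TNF) superfamily is a group of cytokine ligands and the cell surface or secreted receptors that bind them. Its members were taken by symbol from the deposited expression table, as every gene whose symbol begins with Tnfsf or Tnfrsf together with Tnf, Lta, Ltb, Ltbr, Fas, Fasl, Cd40, Cd40lg, Cd27, Cd70, Eda, Edar and Ngfr. The rule found 45 of 21966 genes, and all 45 had a usable value in both conditions. By role they were 18 ligands, 7 receptors with a death domain, 15 TRAF-binding receptors without one, 3 decoy receptors, the little described receptor Tnfrsf26, and Tnfsfm13, the readthrough gene of Tnfsf12 and Tnfsf13.

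RNA-seq was done on primary cell lines grown from intestinal tumors of mice, with 3 samples that carried the conditional ROSA26-PID allele (PID+) and 3 that lacked it (PID-). The comparison asked how transcription differed in Apc mutant tumor cells in which the Group I p21-activated kinases (Paks) were inhibited. The samples are named for mice 1, 2 and 3 in PID- and mice 4, 7 and 26 in PID+, of which the PID+ numbers are also those of the study's text and the PID- numbers are not. In the labels the PID- samples are termed normal and untreated, although tumor induction is given for all samples and the study's methods describe both groups as tumor cells.

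The PID- genotype was CDX2P-NLS-Cre;APC Δ/+ and the PID+ genotype was CDX2P-NLS-Cre;APC Δ/+;ROSA26-PID, so the Cre transgene and the heterozygous APC deletion were common to both. The PID is a peptide inhibitor of Group I Paks, made here as a GST fusion with a substitution that removes FMR1 binding, and it is expressed with eGFP once Cre has excised a stop cassette. Cre was under a CDX2 promoter, which is used to target colonic epithelium. No age is given for the samples in the labels. The table names its conditions treated and untreated, and these were read as PID+ and PID- from the labels. That reading was not checked against the PID itself, which is not among the genes of the table. Under it, the mesenchymal gene Vim had the lower value in PID+ and the epithelial genes Cdh1 and Cldn7 the higher, with values given among the markers.

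The read sets of a condition had been merged before quantification, so each gene had 1 FPKM value (fragments mapped to a gene, scaled to transcript length and to sequencing depth) per condition, with a confidence interval from the count model of CuffDiff and no spread between samples. The methods describe the 3 merged sets as sequencing runs, whereas the labels name mice, and the table does not tell these apart. No difference given here has a replicate check, and none was tested. Changes are log2 of the ratio of FPKM + 1 in PID+ to FPKM + 1 in PID-, a scale that understates changes of low genes, and 3-fold is 1.58 on it. Among genes with 1 annotated transcript, 89.4% of 865 low values in PID+ and 90.7% of 804 in PID- fell within 0.1 of a whole number of reads, which gave the estimated read numbers below. The FPKM that 1 read adds was 1.36 times larger in PID+, so read numbers show the precision of a value and are not compared between conditions.

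TNF superfamily ligands act as trimers, on the cell surface or after release, and bring their receptors together. Receptors with an intracellular death domain bind adaptors such as FADD and TRADD and can lead to caspase activation or to NF-kB signaling, receptors without it bind TRAF adaptors that feed NF-kB and MAP kinase pathways, and decoy receptors capture ligand without passing on these signals. In the gut the family is known for its part in mucosal inflammation, epithelial cell death and the formation of lymphoid tissue.

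In PID+ cells 5 of the 45 members fell below the 3-fold line, namely the ligand Tnfsf15 and the receptors Tnfrsf9, Tnfrsf1b, Tnfrsf11b and Tnfrsf19. This is 11.1% of the members, beside 1.72% of the 21959 genes with usable values that were lower by this measure. No member was at least 3-fold higher, beside 1.04% of all genes. The deposited intervals of the conditions were apart for 1 member in the lower direction, where this held for 0.542% of all genes, and for 0 members in the higher direction, where it held for 0.187%. The median log2 change was -0.0029 over the members and 0.00 over all genes, and it was -0.20 over the 16 members with a mean of at least 1 FPKM and -0.0069 over 11480 such genes. A gene below 1 FPKM in both conditions cannot reach 3-fold on this scale, and 28 members were that low, as were 10174 of all genes.

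The family's transcripts were unevenly divided among its members. Their summed FPKM was 570.3 in PID+ and 569.5 in PID-, and the receptor Tnfrsf12a alone accounted for 242 and 226 of it. The 18 ligands together came to 15.8 FPKM in PID+ and 29.6 in PID-, so these cells carried far more receptor than ligand RNA. On the deposited scale 17 members had the higher value in PID+ and 23 in PID-, and the other 5 were listed at 0 in both. Over all genes with usable values, 9001 had the higher value in PID+ and 8726 in PID-, and 4232 were at 0 in both. Of the members, 28 were below 1 FPKM in both conditions, where a direction can rest on few reads.

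**Figure D1:**
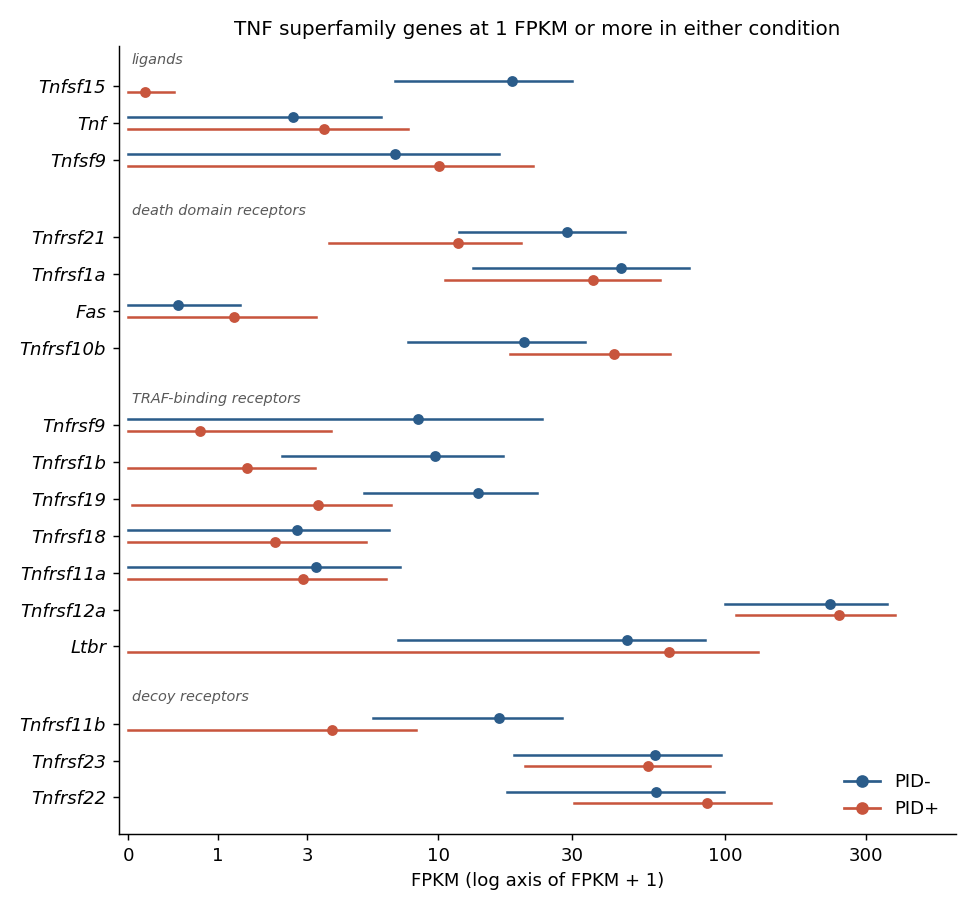
FPKM of the members that reached 1 FPKM in either condition, on a log axis of FPKM + 1, with PID- in blue and PID+ in red. Points are the pooled values and lines the deposited confidence intervals, which are apart for Tnfsf15 (0.143 in PID+ and 18.4 in PID-) and overlap for each other gene shown.

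Among the ligands, Tnfsf15 stood out. It encodes TL1A, a ligand that costimulates lymphocytes through the receptor encoded by Tnfrsf25 and is known for its association with inflammatory bowel disease. Its FPKM was 18.4 in PID- (interval 6.89 to 29.9) and 0.143 in PID+ (interval 0 to 0.424). The log2 change was -4.09, and the ratio of the FPKM values themselves was 128-fold. The PID+ value rested on an estimated 31.2 reads (95% Poisson interval 21.1 to 44.0) and the PID- value on 5461 reads (5317 to 5608), where these intervals cover counting error only. Tnfsf15 (ENSMUSG00000050395.8) lies on the minus strand at chr4:63727084-63745113 of GRCm38 and has 1 annotated transcript. In bulk RNA, fewer cells of a type and less RNA per cell cannot be told apart. The receptor gene Tnfrsf25 was at 0.0929 FPKM in PID+ and 0.381 in PID-, so ligand RNA was measured in PID- cells with little RNA of its receptor.

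Tnfsf9, the costimulatory ligand of the receptor encoded by Tnfrsf9, was the other ligand above 5 FPKM. It was at 6.86 FPKM in PID- (interval 0 to 16.6) and 10.1 in PID+ (interval 0 to 21.9), with a log2 change of 0.49 that became -0.06 when the conditions were set to equal Gapdh. Both intervals reach 0 although the values rested on an estimated 711 and 765 reads, so the width of these intervals is not counting error alone. Tnfsf9 overlaps the gene Gm11110, and its reads may include some of that gene.

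Tnf, which gives the family its name and encodes a main inflammatory cytokine, was the third ligand to reach 1 FPKM. This lower limit was set after the values were seen. Tnf was at 2.58 FPKM in PID- (interval 0 to 6.06) and 3.55 in PID+ (interval 0 to 7.73). Its neighbours Lta and Ltb, which encode the lymphotoxins and lie 1.2 kb and 3.1 kb from it on chromosome 17, were far lower. Ltb was at 0.090 FPKM in PID- and 0.10 in PID+. Lta was at 0.0177 FPKM in PID-, an estimated 2.0 reads, and was listed at 0 in PID+.

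The remaining 15 ligands were below 1 FPKM in both conditions. By the mean of both conditions the highest of these were Eda and Tnfsf12, while in PID- Tnfsf13 was the highest. Eda, the ectodysplasin of skin appendage development, was at 0.727 FPKM in PID+ and 0.30 in PID-. Tnfsf12, the ligand of the receptor encoded by Tnfrsf12a, was at 0.583 and 0.153. Fasl and Tnfsf10, which encode the death ligands FasL and TRAIL, did not exceed 0.0994 FPKM in either condition. Tnfsf11, which encodes RANKL, the cytokine of osteoclast and M cell formation, was at an estimated 1 read in PID+ and 10 in PID-. Tnfsf18 had an estimated 14.1 and 51.7 reads, Tnfsf4 had 18.1 and 29.9, and Tnfsf8 had 4.0 and 8.0, in PID+ and PID- respectively. These ligands costimulate T cells. For Tnfsf18 the counting intervals were 7.65 to 23.5 reads in PID+ and 38.8 to 68.2 in PID-, all above the limit for a count of 0, and its deposited FPKM intervals both reach 0. Tnfsf13 and Tnfsf13b, which encode the B cell survival factors APRIL and BAFF, were at 0.102 and 0.0981 FPKM in PID+ and at 0.357 and 0.228 in PID-. Cd40lg, Cd70 and Tnfsf14 were listed at 0 in both conditions, and a count of 0 allows up to 3.69 reads. Tnfsf12, Tnfsf13 and Tnfsfm13 overlap on chromosome 11, so the division of reads among them is uncertain.

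None of the 7 receptors with a death domain passed 3-fold in either direction on the deposited scale. Tnfrsf1a, the broadly expressed receptor of TNF that can signal to NF-kB or to cell death, was the most abundant of them in PID-. In PID+ Tnfrsf10b was above it. Tnfrsf1a was at 44.4 FPKM in PID- (interval 13.4 to 75.3) and 35.4 in PID+ (interval 10.6 to 60.3), a log2 change of -0.32. The intervals overlap over most of their length, and no difference could be told from these values.

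Tnfrsf10b and Tnfrsf21 lay on opposite sides of no change. Tnfrsf10b, the death receptor of TRAIL in mice, was at 20.4 FPKM in PID- (interval 7.74 to 33.1) and 41.6 in PID+ (interval 18.1 to 65.2). Its log2 change of 0.99 was the highest of all members, and it was 0.39 when the conditions were set to equal Gapdh. Tnfrsf21, which encodes death receptor DR6, was at 28.8 FPKM in PID- (interval 12.0 to 45.7) and 11.8 in PID+ (interval 3.74 to 19.9). Its log2 change of -1.22 was the nearest outside the 3-fold threshold, as that of Tnfrsf19, at -1.79, was the nearest inside. With equal Gapdh the change of Tnfrsf21 was -1.79, which is past 3-fold, while the median of all genes with a mean of at least 5 FPKM moved to -0.58.

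The other death domain receptors were low. Fas, the receptor of FasL, was at 1.26 FPKM in PID+ (interval 0 to 3.27) and 0.469 in PID- (interval 0 to 1.38). Ngfr, the low affinity neurotrophin receptor, had an estimated 1.0 read in PID+ and 2.0 in PID-. Edar, the receptor of ectodysplasin, was listed at 0 in both. The ligand genes of Tnfrsf10b and Fas, Tnfsf10 and Fasl, were thus near 0 in cells that held RNA of these receptors.

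Among the 15 TRAF-binding receptors without a death domain, 3 were at least 3-fold lower in PID+ and 0 were higher. Tnfrsf9 encodes the costimulatory receptor 4-1BB, best known from activated T cells. It was at 8.42 FPKM in PID- (interval 0 to 23.5) and 0.744 in PID+ (interval 0 to 3.81), a log2 change of -2.43. The intervals overlap widely, and both reach 0. Tnfrsf9 has 9 annotated transcripts and overlaps the gene Camta1, and the library kit does not mark strand, so its value is uncertain.

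Tnfrsf1b encodes the second receptor of TNF, which lacks a death domain and is better known from leukocytes and endothelium than from epithelium. It was at 9.72 FPKM in PID- (interval 2.27 to 17.2) and 1.5 in PID+ (interval 0 to 3.26), a log2 change of -2.10 and a ratio of 6.48-fold. Its intervals overlap over a narrow range. Of the receptors of TNF, Tnfrsf1a had the higher FPKM in both conditions, and whether their changes differ was not tested.

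Tnfrsf19 encodes TROY, an orphan receptor known as a Wnt target gene and a marker of intestinal stem cells. It was at 13.9 FPKM in PID- (interval 5.21 to 22.7) and 3.33 in PID+ (interval 0.0317 to 6.63), a log2 change of -1.79. These intervals overlap by a small part of either.

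The most abundant member, Tnfrsf12a, did not follow these receptors. It encodes Fn14, the receptor of TWEAK, a gene induced by growth factors and tissue injury. It was at 226 FPKM in PID- (interval 99.8 to 353) and 242 in PID+ (interval 109 to 376). The log2 change was 0.10, and its sign turned with equal total FPKM (-0.00) and with equal Gapdh (-0.52). Ltbr, the lymphotoxin beta receptor of lymphoid organ formation, was at 46.4 FPKM in PID- (interval 7.04 to 85.7) and 64.2 in PID+ (interval 0 to 129.8). Its log2 change of 0.46 likewise became -0.15 with equal Gapdh. The ligand genes of these abundant receptors, Tnfsf12 for Tnfrsf12a and Lta, Ltb and Tnfsf14 for Ltbr, were below 1 FPKM in both conditions.

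Tnfrsf11a, which encodes RANK, was at 3.27 FPKM in PID- and 2.86 in PID+. Tnfrsf18, which encodes the costimulatory receptor GITR, was at 2.7 and 2.1. These were the other TRAF-binding receptors to reach 1 FPKM, and their intervals reach 0 in both conditions. The remaining 8 (Cd27, Cd40, Tnfrsf4, Tnfrsf8, Tnfrsf13b, Tnfrsf13c, Tnfrsf14 and Tnfrsf17), most of them known as receptors of lymphocytes, did not exceed 0.793 FPKM. Tnfrsf17 was listed at 0 in both conditions, and Tnfrsf8 and Tnfrsf14 were listed at 0 in PID+ only, with 0.0312 and 0.408 FPKM in PID-.

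Of the 3 decoy receptors, Tnfrsf11b was at least 3-fold lower in PID+. It encodes osteoprotegerin, a secreted protein that binds RANKL and TRAIL. It was at 16.6 FPKM in PID- (interval 5.64 to 27.6) and 3.85 in PID+ (interval 0 to 8.27), a log2 change of -1.86 and a ratio of 4.31-fold. The gene (ENSMUSG00000063727.3, chr15:54250619-54278484, minus strand) has 1 annotated transcript, and the values rested on an estimated 4103 reads in PID- and 698 in PID+. The deposited intervals overlap although the counting intervals of these reads are narrow (3978 to 4230.5 and 647 to 752).

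Tnfrsf22 and Tnfrsf23 encode decoy receptors of TRAIL found in mice. Tnfrsf22 was at 58.4 FPKM in PID- (interval 17.7 to 99.0) and 86.6 in PID+ (interval 30.5 to 142.7), a log2 change of 0.56 that became -0.06 with equal Gapdh. Tnfrsf23 was at 57.6 FPKM in PID- (interval 18.7 to 96.6) and 54.5 in PID+ (interval 20.5 to 88.6). Neither difference exceeds its intervals. These genes and Tnfrsf26, at 0.152 FPKM in PID+ and 0.327 in PID-, are similar copies that lie side by side on chromosome 7, so reads shared among them make their values uncertain. In both conditions the RNA of the TRAIL decoys was above that of the death receptor gene Tnfrsf10b, per length.

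**Figure D2:**
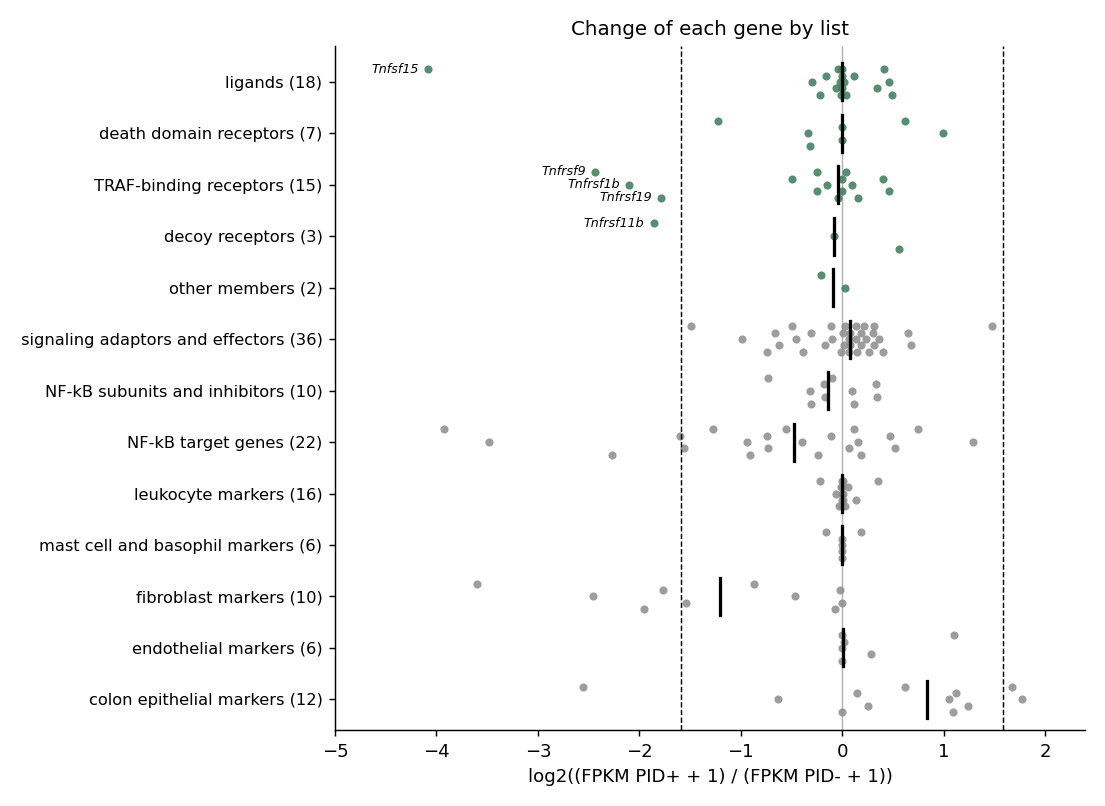
Log2 change of each gene, PID+ against PID- on the FPKM + 1 scale, for the members by role in green and for the other lists in gray, with the number of genes in parentheses. Vertical bars are medians and dashed lines mark 3-fold; beyond the lower line lie 5 members, 4 of 22 NF-kB target genes, 4 of 10 fibroblast markers and 1 of 12 colon epithelial markers, and beyond the upper line lie 2 colon epithelial markers.

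The genes that carry the signal of these receptors into the cell were described next. Of 36 signaling adaptors and effectors, 0 were at least 3-fold higher and 0 lower, with a median log2 change of 0.07. Cflar, which encodes the caspase inhibitor FLIP, was at 57.8 FPKM in PID- and 72.3 in PID+. Casp8, the initiator caspase of death receptors, was at 53.6 and 71.4. Rbck1, a subunit of the linear ubiquitin ligase, was at 40.0 and 64.7. By the mean of both conditions these were the most abundant of the list, while Ikbkg was the highest in PID-. In the list 2 genes, Traf1 and Edaradd, were below 1 FPKM in both conditions.

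The ends of the range of these adaptors, named after their values were seen, were Ikbkg and Ripk3. Ikbkg encodes the regulatory subunit of the IkB kinase and was at 65.2 FPKM in PID- (interval 0 to 142) and 22.5 in PID+ (interval 0 to 63.9), a log2 change of -1.49. Ripk3 encodes the kinase of necroptosis and was at 7.47 FPKM in PID- (interval 0.434 to 14.5) and 22.5 in PID+ (interval 7.21 to 37.8), a log2 change of 1.47. Both lie short of 3-fold on this scale with overlapping intervals.

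Of 10 NF-kB subunits and inhibitors, 0 passed 3-fold in either direction, with a median of -0.14. Rela was at 40.0 FPKM in PID- and 35.5 in PID+, Nfkb1 was at 33.3 and 36.1, and Nfkb2 was at 23.4 and 30.05. Of 22 NF-kB target genes, 4 (18.2%) were lower by 3-fold or more in PID+ and 0 were higher, with a median of -0.48. Nfkbia, Tnfaip3, Birc3 and Traf1 belong to this list and to one of the lists before it.

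The 4 lower target genes were Lcn2, Tnfaip2, Ccl2 and Csf2. Lcn2, an iron-scavenging protein, was at 79.3 FPKM in PID- (interval 29.5 to 129) and 4.28 in PID+ (interval 0 to 9.84), with intervals apart. Tnfaip2, a TNF-induced gene, was at 48.3 FPKM in PID- (interval 4.69 to 92.0) and 3.43 in PID+ (interval 0 to 9.60). The chemokine gene Ccl2 was at 5.74 and 0.396, and the cytokine gene Csf2 was at 2.97 and 0.309. For Tnfaip2, Ccl2 and Csf2 the intervals of the conditions overlap. Other targets were abundant in both conditions. Cxcl5, a neutrophil chemokine, was at 230.2 FPKM in PID- and 319 in PID+. Cxcl1, of the same kind, was at 101 and 68.2, and Ptgs2, the inducible cyclooxygenase, was at 52.1 and 75.2. The list thus holds genes with the higher value in either condition, 8 in PID+ and 14 in PID-.

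Since several members are best known from leukocytes or stroma, marker genes of other cell types were read beside them. Of 16 leukocyte markers, 0 passed 3-fold and 15 were below 1 FPKM in both conditions. Their summed FPKM was 22.1 in PID+ and 17.2 in PID-, nearly all of it from Cd68, a lysosomal protein gene, at 21.8 and 16.8. The defining markers Cd3e, Cd3d, Cd2, Nkg7 and Ncr1 were listed at 0 in both conditions, and Ptprc, the common leukocyte antigen, was at 0.0264 FPKM in PID+ and 0.00811 in PID-. Of 6 mast cell and basophil markers, 0 passed 3-fold. They summed to 0.637 FPKM in PID+ and 0.567 in PID-, mostly from Kit, with Cpa3, Fcer1a, Ms4a2 and Tpsb2 listed at 0. The part of leukocytes in the values of the members was not tested beyond these levels.

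Of 10 fibroblast markers, 4 were lower by 3-fold or more in PID+, the direction of the 5 lower members, and 0 were higher. The other 6 were within 3-fold, 5 of the 10 were below 1 FPKM in both conditions, and the median was -1.20. Their summed FPKM was 36.3 in PID- and 3.14 in PID+. By the mean of both conditions the most abundant was Col1a1, at 11.9 and 2.32, followed by Col1a2 at 11.9 and 0.0654 and Col3a1 at 6.35 and 0.339. Dcn was at 2.39 FPKM in PID- and listed at 0 in PID+, Lum was listed at 0 in both, and Pdgfra was below 1 FPKM in both. Outside this list, Vim, which encodes the mesenchymal intermediate filament vimentin and was added after its values were seen, was at 997 FPKM in PID- (interval 213 to 1782) and 19.1 in PID+ (interval 0.124 to 38.1), with intervals apart. The part of these cells or genes in the lower values of the 5 members was not tested.

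Of 6 endothelial markers, 0 passed 3-fold. Their sum was 3.87 FPKM in PID+ and 1.32 in PID-, mostly from Kdr at 3.33 and 1.01, and Cldn5 was listed at 0. The median over 12 colon epithelial markers was 0.84, with 2 genes at least 3-fold higher in PID+ (Epcam, 401 FPKM against 124, and Cldn7, 274 against 79.4) and 1 lower (Cdx2, 0.542 against 8.04). They summed to 9351 FPKM in PID+ and 5141 in PID-. Krt19, Krt18 and Krt8 were the most abundant, each above 1199 FPKM in both conditions. Cdh1, the E-cadherin gene, was at 192 FPKM in PID+ and 88.0 in PID-. Among the markers of intestinal cells, Krt20 was at 158 FPKM in PID+ and 73.5 in PID-, and Lgals4 was at 1.86 and 3.43. Vil1 was at 0.175 and 0.0614, and Cdx1 was listed at 0 in both. Keratins, Cdh1 and Epcam of the epithelial label were thus abundant in both conditions, and the intestinal markers ranged from abundant to 0. The part of this difference in the family's values was not tested.

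By position, 9 of the 45 members lie on chromosome 4, and 3 of the 5 lower members, Tnfsf15, Tnfrsf9 and Tnfrsf1b, are among them. Chromosome 4 holds 1311 of all genes (5.97%) and 24 of the 377 genes that were lower by 3-fold or more (6.37%). The median log2 change of the 560 chromosome 4 genes with a mean of at least 5 FPKM was -0.31. With that median subtracted, the changes were -3.77 for Tnfsf15, -2.12 for Tnfrsf9 and -1.79 for Tnfrsf1b, so each stayed past 3-fold. Neighbouring members were low in both conditions. Tnfsf8, 86.2 kb from Tnfsf15, was at 0.0161 FPKM in PID+ and 0.0234 in PID-, and Tnfrsf8 lies 20.3 kb from Tnfrsf1b. On chromosome 6, where the median was 0.34, Tnfrsf1a and Ltbr lie 35.5 kb apart, with log2 changes of -0.32 and 0.46.

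Upstream sequence was read for the members past 3-fold, which were picked by that threshold in this 1 comparison. RefSeq (GRCm38.p6) gave 39 promoter windows for 35 of the 45 members, of which the 250 bases before the start were searched on both strands. An AP-1 motif, TGANTCA, was in 6 of the 39 member windows and in 6.7% of all 32851 windows. An NF-kB motif, GGGANNTTC, was in 2 member windows and in 3.2% of all windows. A TCF/LEF motif, CTTTGA, was in 7 member windows and 13.8% of all windows, and an E-box read by Zeb and Snai factors, CAGGTG, in 10 member windows and 17.2% of all windows. Other motifs had been considered before these were kept. A match is a description of letters and not a bound site. The sequences are shown for the lower members that have a window outside annotated exons, with motif matches in capitals; Tnfrsf11b has none in the table used. Tnfrsf9 (chr4:150919905-150920154, plus strand) holds 1 TCF/LEF match on the reverse strand, Tnfrsf1b (chr4:145246871-145247120, minus strand) holds 1 E-box match, Tnfrsf19 (chr14:61046856-61047105, minus strand) holds 3 E-box matches, and the 196 bases of Tnfsf15 outside its exon (chr4:63745114-63745309, minus strand) hold none of the motifs.
Tnfsf15: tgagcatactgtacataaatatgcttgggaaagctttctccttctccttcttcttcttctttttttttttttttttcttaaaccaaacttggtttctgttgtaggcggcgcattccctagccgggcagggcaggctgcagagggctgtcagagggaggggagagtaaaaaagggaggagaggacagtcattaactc
Tnfrsf9: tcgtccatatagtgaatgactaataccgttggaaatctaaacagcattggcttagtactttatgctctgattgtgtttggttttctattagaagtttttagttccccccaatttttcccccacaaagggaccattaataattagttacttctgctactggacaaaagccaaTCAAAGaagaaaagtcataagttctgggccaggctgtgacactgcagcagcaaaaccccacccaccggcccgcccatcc
Tnfrsf1b: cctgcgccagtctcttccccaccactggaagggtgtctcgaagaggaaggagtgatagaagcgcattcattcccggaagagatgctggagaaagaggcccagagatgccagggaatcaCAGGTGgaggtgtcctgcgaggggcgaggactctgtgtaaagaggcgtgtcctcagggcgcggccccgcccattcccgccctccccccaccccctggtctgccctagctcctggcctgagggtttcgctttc
Tnfrsf19: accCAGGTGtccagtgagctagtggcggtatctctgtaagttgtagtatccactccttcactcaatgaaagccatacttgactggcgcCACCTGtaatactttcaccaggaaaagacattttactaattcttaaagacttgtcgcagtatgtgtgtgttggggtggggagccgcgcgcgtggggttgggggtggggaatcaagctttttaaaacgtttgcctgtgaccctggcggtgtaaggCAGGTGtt
The Tnfrsf9 stretch precedes a RefSeq start that lies within the gene as Gencode annotates it (chr4:150914562-150946102), so it is not upstream of the whole gene. No NF-kB or AP-1 match was in any of these stretches. Another window of Tnfrsf9, which overlaps an annotated exon, holds 1 AP-1 match, and another of Tnfrsf19 holds 1 TCF/LEF match.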

How the data were processed

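Per the study's methods, the authors removed adapters with CutAdapt, aligned reads with TopHat and Bowtie2 to GRCm38.p3 with only protein-coding genes annotated, put the 3 read sets of each condition together and ran CuffDiff with compatible hits normalization. The deposited values are FPKM per gene and condition with confidence bounds. Symbols from Gencode matched 21734 of 21966 genes; 7 genes without a usable status in both conditions were left out.

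The members and lists were chosen with earlier results of these data known. Named members were those of at least 5 FPKM in either condition, at least 3-fold changed or with intervals apart; in other lists, genes past 3-fold or with intervals apart and the 3 most abundant. The pseudocount was 1 FPKM. Read numbers came from a length correction of 185 bases, the best of 31 tried; total depth is unknown. Code used Python 3.11.15, numpy 2.4.6, pandas 2.3.3 and scipy 1.17.1 and was tested on simulated data. Alternatives changed the pseudocount, scaling, chromosome median, filter and threshold.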

Additional observations from a re-analysis of the deposited data

How the results depend on the processing

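With 1 pooled value per condition, nothing here has a replicate check. No paired analysis was possible because the table holds pooled values and no value per sample. The count of 5 lower members was 5 or 6 under the other pseudocount, scaling, chromosome, filter and 2-fold alternatives. It was 1 where the deposited intervals had to be apart. Most of these alternatives could not have lowered the count. The filter removes no gene that is 3-fold changed on this scale. A smaller pseudocount, a 2-fold threshold, equal total FPKM and equal Gapdh can only keep or raise a count of lower genes. Apart from the intervals, only the upper quartile and chromosome alternatives could have lowered it, and it was 5 under each. The count of higher members was 0 under each alternative. The median of the members was -0.20 when only the 16 with a mean of at least 1 FPKM were kept, against -0.0069 over 11480 such genes. That filter leaves out the 28 members below 1 FPKM in both conditions, for which this scale keeps changes small. The median over all 45 members falls among them, so it could move little otherwise. The other alternatives stayed within 0.1 of the main value. Of 65 values of the 13 named members under alternatives, 60 kept their direction, and many of these could not have turned. A change of pseudocount cannot turn a direction. The factor on PID+ for equal upper quartile was 1.01, close to no change. Equal total FPKM and equal Gapdh lower the PID+ values, so they could turn only members that were higher in PID+. Tnfsf15 was at -6.25 with a pseudocount of 0.1, against -4.09 with a pseudocount of 1. The value of -6.25 lies beyond the limits that its deposited intervals give with a pseudocount of 1, which is another scale. Its FPKM values are the same in both, so nothing moved beyond the deposited intervals themselves. The deposited intervals are too wide to judge the other values by. The 5 that turned were Tnfrsf12a with equal total FPKM or equal Gapdh, and Ltbr, Tnfrsf22 and Tnfsf9 with equal Gapdh. Equal Gapdh shifts the median of all genes with a mean of at least 5 FPKM to -0.58, and all 4 of these genes lie above that median. Over all genes the split was 229 higher and 377 lower as deposited, 76 and 662 with equal Gapdh, 621 and 795 with a pseudocount of 0.1, 726 and 828 at 2-fold, and 41 and 119 with intervals apart. Members below 1 FPKM with 1 annotated transcript rest on an estimated 0 to 51.7 reads per condition, and with no replicates no difference among them was tested.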

Other observations

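Genes tied to the family by function but outside the symbol rule were chosen after their values were seen. Eda2r, the receptor of a splice form of ectodysplasin and a member of the receptor family by structure, was at 2.88 FPKM in PID- (interval 0 to 6.03) and 14.4 in PID+ (interval 4.05 to 24.8). Its log2 change of 1.99 is past 3-fold in the direction in which no member taken by symbol was, while the other ectodysplasin receptor gene, Edar, was listed at 0 in both conditions. Relt, another receptor of the family, was at 3.85 FPKM in PID- and 6.00 in PID+, with intervals that overlap and reach 0. Pglyrp1, which encodes a peptidoglycan recognition protein, was at 229 FPKM in PID- (interval 98.4 to 359.97) and 110.2 in PID+ (interval 40.5 to 179.97). Tnip3, an inhibitor of NF-kB signaling, was at 8.20 FPKM in PID- (interval 1.15 to 15.2) and 2.62 in PID+ (interval 0 to 5.71), whereas Tnip1 was at 31.1 and 27.3 and Tnip2 at 20.6 and 17.0.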
